A study of Homo sapiens with 27 samples.

Results

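The comparison described here set replicate 3 against replicates 1 and 2 in REH cells. REH is an established cell line of human B-precursor leukemia (BCP-ALL) with an ETV6/RUNX1 fusion. Samples were taken by their labels, although these members and the gene lists were chosen with earlier results of these data known. All groups with replicate numbers 1, 2 and 3 were taken, which gave 7 of the 10 groups of the series and 21 of its 27 samples, 7 of them replicate 3 and 14 of them replicates 1 and 2. Every one of the 21 samples had received an LNA GapmeR at 10 µM, without a transfection reagent, and was harvested after 72 hours. LNA GapmeRs are short antisense oligonucleotides, with locked nucleic acids at both ends, that direct RNase H to the RNA they pair with. One group received a non-targeting GapmeR (NTC), and the others received lnc-TIMM21-5 GapmeR1, lnc-TIMM21-5 GapmeR2, lnc-NKX2-3-1 GapmeR2, lnc-RTN4R-1 GapmeR1, lnc-RTN4R-1 GapmeR2 or lnc-ASTN1-1 GapmeR1, each directed at the lncRNA in its name. Since each group held all the numbers once, every GapmeR was weighted equally on both sides of the comparison, and cells of 1 line were compared with themselves.

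The methods of the study place the replicates on different days, whereas the labels give only the number. The 7 samples of replicate 3 share that number, so at this level 1 number was compared with 2. The p-values measure the spread between samples within the groups, which includes any difference between replicates 1 and 2. Day, culture, RNA extraction and library preparation cannot be told apart. A difference given below is therefore one between the samples with these numbers, whatever set them apart.

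Cells in culture adjust a few large gene programs together. Proteins that enter the endoplasmic reticulum (ER) are folded there by chaperones, and when unfolded proteins build up, the sensors ATF6, IRE1 and PERK switch on the unfolded protein response. ATF6 and XBP1, the factor made by IRE1 splicing, induce ER chaperones and degradation factors, while PERK acts through the translation of ATF4. E2F factors drive the genes for DNA replication as cells enter S phase, and proliferating leukemia cells keep these genes, ribosome production and mitochondrial respiration at high levels.

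In replicate 3, the ER genes were higher and the DNA replication and respiratory chain genes lower, in every GapmeR group. Of 24 ER unfolded protein genes tested, 23 were higher and 0 lower, with a median log2 difference of 0.41. Of 46 genes of DNA replication and the G1/S transition, 0 were higher and 46 lower, with a median of -0.32. Of 73 nuclear genes of oxidative phosphorylation, 0 were higher and 70 lower, with a median of -0.30. Across all 15857 genes tested, 25.2% were higher and 23.8% lower, with a median of 0.01. Here a gene counts as higher or lower when its adjusted p-value (edgeR quasi-likelihood test across all genes, with the group as a block) was under 0.05, and log2 differences are replicate 3 minus the mean of replicates 1 and 2.

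**Figure D1:**
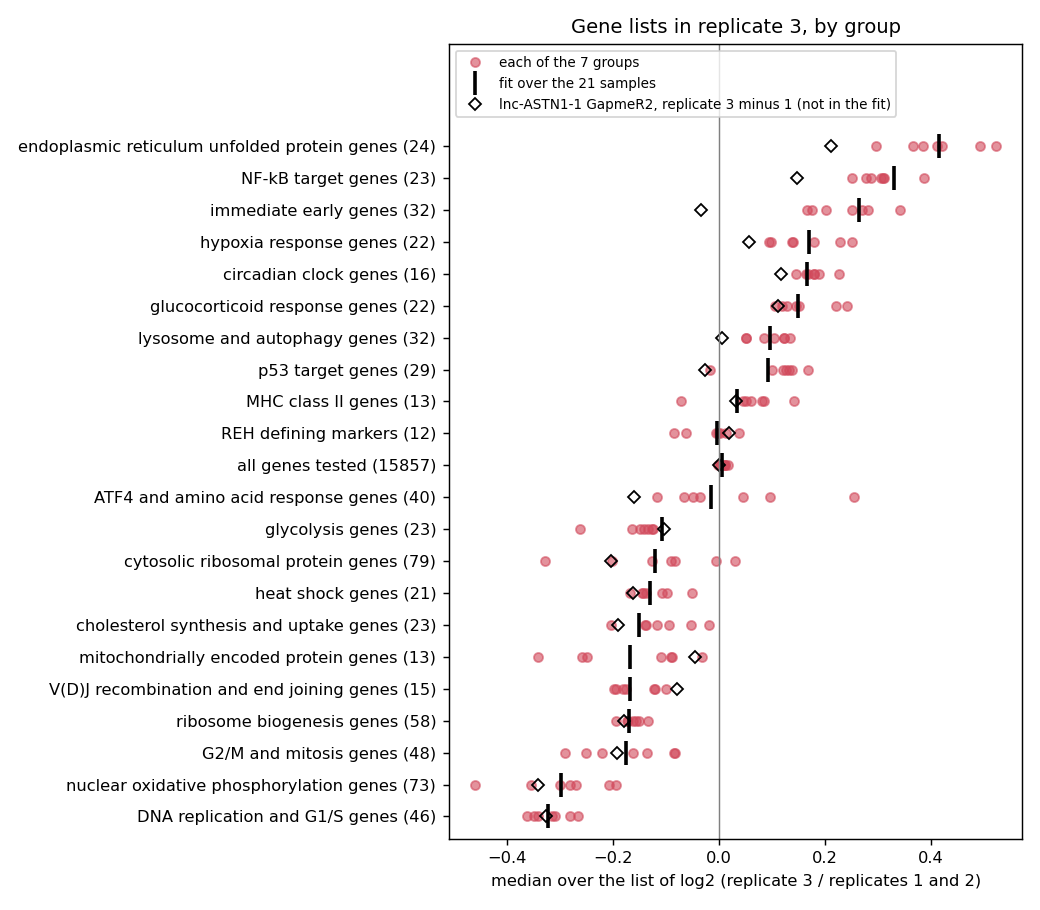
Median log2 difference (x axis) of each gene list (y axis, number of genes tested in brackets) between replicate 3 and replicates 1 and 2. Circles are the 7 groups, bars the fit over the 21 samples, and diamonds replicate 3 minus replicate 1 of lnc-ASTN1-1 GapmeR2, which had no replicate 2 and was not in the fit. The 7 groups of the ER unfolded protein genes lie between 0.30 and 0.52 and those of the DNA replication genes between -0.36 and -0.27.

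Total gene counts ran from 14627110 to 22750945 over the 21 samples, and 71.5% to 77.0% of reads were assigned to a gene. The GapmeR targets were lower in their own groups than in NTC at every replicate number, although lnc-NKX2-3-1 lay under 1 CPM (counts scaled to the size of the library). Of 13 markers that define REH cells, 12 were detected and tested, 4 of them higher in replicate 3 (among them EPOR, CD79A and CD79B) and 5 lower (MME, IGLL1, RAG2, DNTT and PAX5), with a median of 0.00. The remaining marker, VPREB1, had 0 counts in every sample. Markers of other cells were mostly near 0, with under 10 counts in every sample for 9 of 13 T cell, 7 of 12 myeloid, 8 of 11 erythroid and megakaryocyte and 10 of 13 adherent cell markers. Of the 5 myeloid markers tested, 4 were higher (MPO, CSF3R, ITGAM and CD14), and of the 3 adherent cell markers PDGFRB and COL1A1 were higher and VIM lower. TRAC (T cell) and GP9 (megakaryocyte) were also higher and BCL11B (T cell) lower. GP9 had only 4 to 27 counts in a sample and CD14 only 3 to 16. The part of such cells in the results was not tested.

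Of 13 measures of library composition, 5 passed an exact permutation test over all ways to relabel 1 sample per group (two-sided, adjusted over the 13 measures). The share of mitochondrial ribosomal RNA was lower in replicate 3 in 7 of 7 groups, at 0.601% ± 0.0430 (SD, n = 7) against 0.686% ± 0.0186 in replicate 1 and 0.701% ± 0.0178 in replicate 2. The share of replication-dependent histone RNA was lower in 7 of 7 groups and that of lncRNA genes higher in 7 of 7, at 1.42% ± 0.0603 (SD, n = 7) against 1.38% ± 0.0468 and 1.34% ± 0.0475. All 3 had an adjusted p of 0.0019814, from the smallest p that these relabellings allow. The relabelling took each group on its own, although the groups share their replicate numbers. These p-values therefore do not measure the spread between numbers. The share of small RNA genes was lower in 6 of 7 groups (adjusted p = 0.0416, exact permutation test) and that of the 10 highest genes lower in 5 of 7 (adjusted p = 0.0282). Total counts, the assigned, unmapped and mitochondrial shares and the other measures did not pass. The largest unmapped share in replicate 3, 4.53%, was in lnc-NKX2-3-1 GapmeR2. The part of library composition in the gene differences below was not tested.

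The replicate number was the largest single term of variance among the 21 samples, although the GapmeR groups together held more. Replicate 3 against the others held 21.7% of the summed variance of log2 CPM with 1 degree of freedom. The groups held 36.9% with 6 degrees of freedom, or 6.15% for each. Replicate 2 against replicate 1 held 6.76%, and 34.6% remained. In a principal component analysis, component 1 took up 23.02% of the variance and was set by replicate 3 to 88.8%. Replicate 3 scored from 12.9 to 30.1 there, while no other sample scored above -1.32. Component 2 took up 14.3% and followed the GapmeR group, to 89.8%.

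Of the 15857 genes tested, 7761 (48.9%) differed between replicate 3 and the other replicates. Most differences were small, with a median size of 0.23 on the log2 scale among these genes, and 85.6% of them were under 0.5. At least 2-fold differences were seen for 94 genes higher (0.593%) and 22 lower (0.139%). Both 2-fold counts depended on which samples were used. Without replicate 1 there were 207 genes at least 2-fold higher, without replicate 2 there were 45 at least 2-fold lower, and without NTC replicate 3 there were 35 at least 2-fold lower. In 1685 genes (10.6%) replicate 3 lay above both other replicates in all 7 groups, and in 1714 genes (10.8%) below both. The 7 CPM values of replicate 3 lay above all 14 others for 422 genes (2.66%) and below all 14 for 603 genes (3.8%).

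Among the 24 ER unfolded protein genes, all but SEC61B were higher in replicate 3. Of the 24 genes, 21 lay above both other replicates in all 7 groups, and for 15 the 7 samples of replicate 3 did not overlap the other 14. A gene outside the list, FICD, encodes an enzyme that adds AMP to the chaperone HSPA5. FICD (chromosome 12, 108515277 to 108525837, plus strand, GRCh38) was at 3.27, 4.49 and 5.54 CPM (lowest, median and highest of 14) in replicates 1 and 2 and at 8.49, 10.6 and 12.5 CPM (of 7) in replicate 3. Its log2 difference was 1.19, and it was named because that difference was among the largest.

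The largest values in the list included a chaperone, a co-chaperone and a degradation factor. HSPA5, also called BiP, the main chaperone of the ER lumen (chromosome 9, 125234853 to 125241382, minus strand), had a lowest, median and highest level of 351, 421 and 451 CPM in replicate 1, of 244, 284 and 329 CPM in replicate 2 and of 524, 572 and 699 CPM in replicate 3. Its log2 difference was 0.82 ± 0.120 (SE; adjusted p = 6.51e-05). The samples of HSPA5 thus fell in 3 separate ranges, with replicate 2 lowest and replicate 3 highest. HERPUD1, a membrane component of ER-associated degradation, showed the same 3 ranges, at 124, 153 and 164 CPM in replicate 1, at 82.6, 103 and 115 CPM in replicate 2 and at 187, 229 and 250 CPM in replicate 3 (log2 difference 0.86 ± 0.122 (SE), adjusted p = 4.74e-05). DNAJB9, a co-chaperone of HSPA5, had the largest value of the list (0.89 ± 0.177 (SE), adjusted p = 0.000857), but its lowest sample of replicate 3, at 37.4 CPM, lay below the highest of replicate 1, at 40.4 CPM.

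The other members followed in the same direction with smaller values. SEC24D, a coat protein of the vesicles that leave the ER, was at 39.8, 52.5 and 69.7 CPM in the 14 samples and at 70.6, 99.5 and 118 CPM in replicate 3 (log2 difference 0.82). The luminal chaperones HSP90B1 (0.53) and HYOU1 (0.54), the co-chaperones DNAJC3 (0.58) and SDF2L1 (0.66), the secreted protein MANF (0.46) and CRELD2 (0.48) also had replicate 3 above all other samples. So did the disulfide isomerases PDIA4 (0.47) and PDIA3 (0.34), the ER-anchored factor CREB3L2 (0.42) and SYVN1 (0.33), the ubiquitin ligase of ER-associated degradation. XBP1, the transcription factor of the IRE1 branch, was at 216, 255 and 297 CPM against 264, 314 and 330 CPM (log2 difference 0.25 ± 0.0306 (SE), adjusted p = 9.95e-08), with overlapping ranges. SEC61B, a subunit of the translocation channel, was the single member that did not pass, at 70.9, 80.7 and 84.97 CPM against 75.3, 79.5 and 83.6 CPM (adjusted p = 0.742). WFS1, an ER membrane protein outside the list, was at 4.10, 4.99 and 6.01 CPM against 8.18, 11.2 and 12.2 CPM (log2 difference 1.07), and was named for the same reason as FICD.

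**Figure D2:**
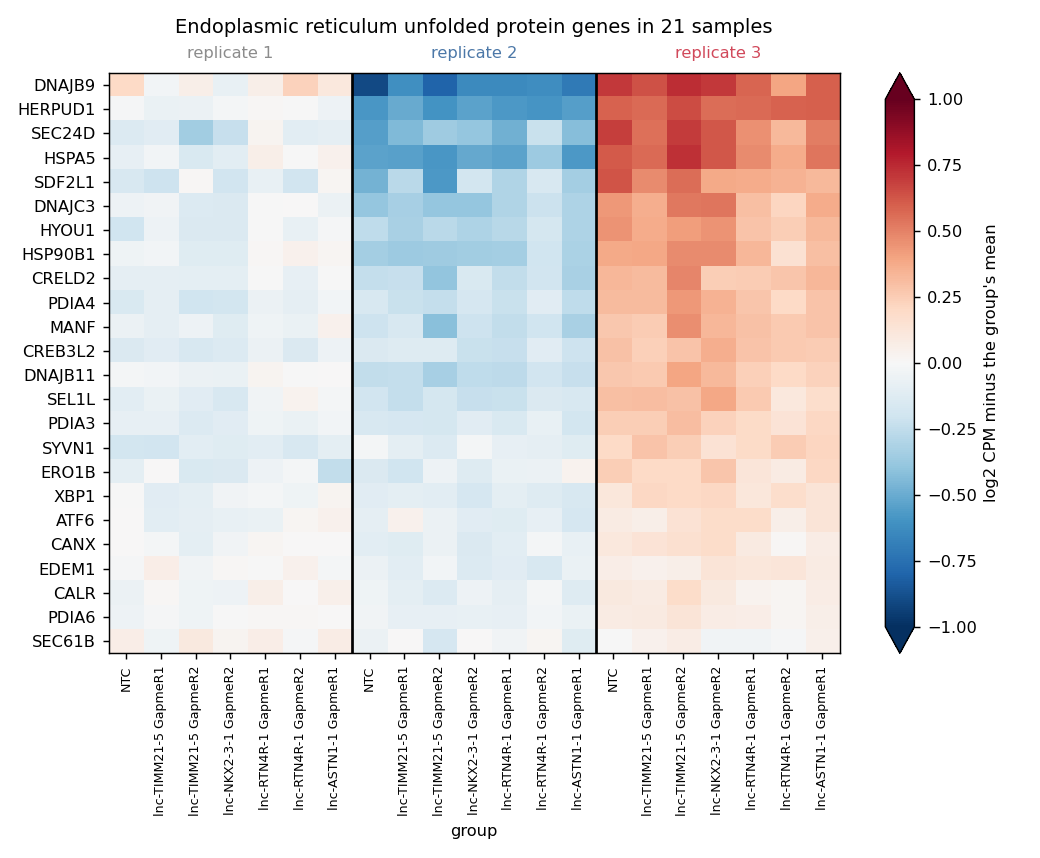
Log2 CPM minus the mean of the group (colour, scale at the right) for the 24 ER unfolded protein genes (rows) in the 21 samples (columns, by replicate number and group). The columns of replicate 3 are red for nearly all rows, those of replicate 2 are mostly blue, and SEC61B in the last row shows no such split.

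Promoters of these genes are shown because ATF6 and XBP1 act through a known DNA element, the ER stress response element (ERSE). Promoter sequences, from 250 bases before to 50 after the start, came from RefSeq (GRCh38.p14) for 22 of the 24 genes and for 10923 of the 15857 genes tested. ERSE was searched as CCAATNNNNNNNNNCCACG and its second form, ERSE-II, as ATTGG, any base and CCACG, each on both strands. One of them was present in 11 of the 22 genes and in 31 of all 10923 (0.284%). In the windows below, written 5′ to 3′ on the strand of the gene, capitals mark the matched letters in either orientation.
HSPA5 (chr9:125241386-125241414, minus strand): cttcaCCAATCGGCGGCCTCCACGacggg
HSP90B1 (chr12:103930211-103930239, plus strand): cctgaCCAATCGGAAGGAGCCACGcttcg
CRELD2 (chr22:49918549-49918577, plus strand): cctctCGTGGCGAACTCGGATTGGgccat
XBP1 (chr22:28800598-28800626, minus strand): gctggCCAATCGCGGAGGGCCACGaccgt
HERPUD1 (chr16:56932016-56932044, plus strand): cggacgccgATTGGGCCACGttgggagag
SDF2L1 (chr22:21642105-21642133, plus strand): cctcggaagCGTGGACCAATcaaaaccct
HYOU1 (chr11:119057265-119057293, minus strand): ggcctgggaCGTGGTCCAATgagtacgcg
The first 4 hold ERSE and the last 3 ERSE-II. ERO1B, PDIA6, CANX and CALR also held ERSE and are not shown. In replicate 3, log2 CPM minus the group mean was 0.016 to 0.126 in PDIA6 and 0.016 to 0.181 in CALR. It was 0.369 to 0.734 in HSPA5, so members with small differences held the element as well. Neither ERSE nor ERSE-II was found in the 39 DNA replication genes or the 60 oxidative phosphorylation genes that had a promoter. With a match in only 0.284% of all genes, none is likely in lists of this size, so their absence tells nothing. The ER list was chosen as genes of the unfolded protein response, so its high share may follow from that choice. A match describes these letters and is no evidence that a factor was bound.

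Genes of the PERK and ATF4 arm did not move as a group. Of 40 ATF4 and amino acid response genes, 12 were higher and 4 lower, with a median of -0.02. The group medians ran from -0.12 in lnc-ASTN1-1 GapmeR1 to 0.25 in lnc-RTN4R-1 GapmeR2. ATF4 itself was at 575, 649 and 732 CPM in the 14 samples and at 591, 680 and 695 CPM in replicate 3 (log2 difference 0.02 ± 0.0347 (SE), adjusted p = 0.619). TRIB3, a pseudokinase induced in this pathway, had the largest value, at 111, 267 and 468 CPM against 413, 536 and 559 CPM (0.88 ± 0.170 (SE), adjusted p = 0.000706), with overlapping ranges. The size of its difference depended on the group. TRIB3 was at 167, 111 and 426 CPM in replicates 1, 2 and 3 of lnc-RTN4R-1 GapmeR2 and at 468, 310 and 559 CPM in those of NTC. DDIT3, the stress factor CHOP, was at 0.32 (adjusted p = 0.0471) and PPP1R15A, a phosphatase subunit that reverses the PERK signal, at 0.41 (adjusted p = 0.0237). Both were lower in replicate 2 than in replicate 1, by 0.51 and 0.57 on the log2 scale, and against replicate 1 alone replicate 3 differed by 0.09 and 0.15. The members that were lower were MTHFD2 (-0.28), PSPH (-0.19), EPRS1 (-0.15) and GARS1 (-0.14), enzymes of one-carbon metabolism, serine synthesis and tRNA charging. PSPH, GARS1, TRIB3, DDIT3 and PPP1R15A were named after their values were seen.

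Heat shock genes were mostly lower, with group medians from -0.17 to -0.05, although some were higher. Of 21 tested, 4 were higher and 13 lower, with a median of -0.13. The abundant chaperone HSP90AA1 was at 1225, 1364 and 1556 CPM in the 14 samples and at 1015, 1071 and 1135 CPM in replicate 3 (log2 difference -0.34 ± 0.0304 (SE), adjusted p = 2.99e-10), without overlap. HSP90AB1 (-0.30) and the mitochondrial chaperones HSPD1 (-0.31) and HSPE1 (-0.43) also had replicate 3 below all other samples. The 4 higher members, named after their values were seen, were HSPA1A (0.76), HSPA1B (0.65), BAG3 (0.57) and SERPINH1 (0.23). HSPA1A and HSPA1B are near-identical copies, so how reads were split between them is uncertain. SERPINH1 is the collagen chaperone of the ER. Of 20 NRF2 genes, which answer oxidative stress, 7 were higher and 9 lower. The higher members included the factor NFE2L2 itself (0.34) and SQSTM1 (0.35), and the lower ones PRDX1 (-0.34), a peroxiredoxin, and NQO1 (-0.38), a quinone reductase.

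NF-kB target genes were higher in all 7 groups, with group medians between 0.25 and 0.39. Of 23 tested, 18 were higher and 1 lower, with a median of 0.33. TNFAIP2, which TNF induces, was at 40.5, 46.02 and 55.8 CPM in the 14 samples and at 68.7, 75.8 and 102 CPM in replicate 3 (log2 difference 0.78 ± 0.0446 (SE), adjusted p = 2.92e-13). ICAM1, an adhesion molecule, was at 10.3, 15.8 and 19.04 CPM against 19.3, 22.03 and 26.6 CPM (0.58 ± 0.0557 (SE), adjusted p = 1.13e-09). In neither gene did the ranges overlap. BCL3 (0.37), an NF-kB cofactor, and BIRC3 (0.88), an inhibitor of apoptosis, also did not overlap, whereas TNF (0.45) and CCR7 (0.88) did. CXCL8, a chemokine, had the largest value in the list (1.07 ± 0.292 (SE), adjusted p = 0.00787), with 1.87 against replicate 2 and 0.55 against replicate 1. CD69, an activation marker, was the lower member (-0.14), at -0.03 against replicate 2 and -0.23 against replicate 1, and it no longer passed without replicate 1. MIR3142HG, the host transcript of the NF-kB-induced microRNA miR-146a and outside the list, was at 3.17, 4.70 and 7.28 CPM against 10.6, 12.3 and 14.01 CPM (1.36), and was also named for the size of its difference.

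Immediate early genes, which mitogen signals switch on within minutes, were higher in part. Of 32 tested, 19 were higher and 3 lower, with a median of 0.26. KLF10, a transcription factor induced by TGF-beta, was at 19.9, 25.5 and 28.9 CPM in replicate 1, at 11.8, 14.9 and 18.7 CPM in replicate 2 and at 29.2, 38.0 and 44.1 CPM in replicate 3 (log2 difference 0.92 ± 0.149 (SE), adjusted p = 0.000162). NR4A1 and NR4A3, nuclear receptors of this class, were at 0.84 and 1.24, and neither overlapped. JUN, a subunit of AP-1, was at 15.6, 37.4 and 68.0 CPM against 41.3, 61.8 and 87.6 CPM (0.74 ± 0.182 (SE), adjusted p = 0.00410), with overlap. EGR1 was at 0.56 (adjusted p = 0.000290). FOS did not pass, at 12.4, 18.05 and 29.7 CPM against 14.5, 15.6 and 25.5 CPM (adjusted p = 0.435). The 3 lower members were ETV4 (-0.23), SRF (-0.20) and DUSP1 (-0.10). The list median was 0.14 against replicate 1 and 0.32 against replicate 2.

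Of 29 p53 target genes, 13 were higher and 4 lower, with a median of 0.09. TNFRSF10B, the death receptor DR5 (chromosome 8, 23020133 to 23069031, minus strand), was at 26.1, 33.3 and 43.2 CPM in the 14 samples and at 57.5, 61.9 and 66.3 CPM in replicate 3. Its log2 difference of 0.87 ± 0.0454 (SE) had the smallest adjusted p-value of any list member named (2.37e-14), and the ranges did not overlap. PLK3 (0.39), PLK2 (0.53) and the death gene BBC3 (0.41) were higher, whereas MDM2 (-0.22), which degrades p53, POLH (-0.22), BAX (-0.15) and DDB2 (-0.11) were lower. The BCL2 family as a list was near the background, with 4 of 14 genes higher and 2 lower and a median of 0.0048. BMF, a killer protein of this family, was at 19.1, 24.3 and 28.6 CPM against 33.8, 37.0 and 45.5 CPM (0.65 ± 0.0621 (SE), adjusted p = 9.99e-09), without overlap. HRK (0.35), BBC3 and BCL2L11 were also higher, and BAX and BID lower.

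Of 22 glucocorticoid response genes, 15 were higher and 4 lower (median 0.15). TSC22D3, the leucine zipper protein GILZ, was at 41.6, 62.7 and 83.9 CPM against 66.9, 90.1 and 104 CPM (log2 difference 0.57 ± 0.0528 (SE), adjusted p = 1.07e-08), and NR3C1, the glucocorticoid receptor, was at 0.33. SGK1 (0.40), a kinase, and TXNIP (0.48), which restrains glucose uptake, were higher as well, while FKBP5 (-0.26), CXCR4 (-0.20), IL7R and DUSP1 were lower. TXNIP stood at 0.83 against replicate 2 but at 0.20 against replicate 1. Of 16 circadian clock genes, 11 were higher and 1, BMAL2, was lower (median 0.16). TEF, an output factor of the clock, was at 9.43, 10.52 and 12.1 CPM against 12.5, 15.8 and 17.9 CPM (0.58 ± 0.0581 (SE), adjusted p = 2.42e-09), without overlap. The repressors NR1D2 (0.50) and CIART (0.70) and the activator NPAS2 (0.84) were higher too.

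Of 22 hypoxia response genes, 12 were higher and 4 lower (median 0.17). VEGFA, the endothelial growth factor, was at 14.8, 19.5 and 24.3 CPM against 24.9, 29.2 and 31.4 CPM (log2 difference 0.56 ± 0.0533 (SE), adjusted p = 8.45e-10), and P4HA2, a collagen hydroxylase of the ER, was at 0.68. Neither overlapped. The 4 lower members were FAM162A (-0.37), HILPDA (-0.27), BNIP3 (-0.20) and PDK1. FAM162A and HILPDA did not overlap either, and in the whole list 3 higher and 2 lower members had no overlap. Of 32 lysosome and autophagy genes, 15 were higher and 6 lower (median 0.10). WIPI1, which binds the forming autophagosome, was at 2.22, 3.63 and 4.85 CPM against 6.11, 6.85 and 8.59 CPM (0.96 ± 0.0804 (SE), adjusted p = 7.64e-11), without overlap, and GABARAPL1, a protein of the autophagosome membrane, was at 0.79. The lysosomal protease CTSL was at -0.30. None of these list counts was tested as a set.

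**Figure D3:**
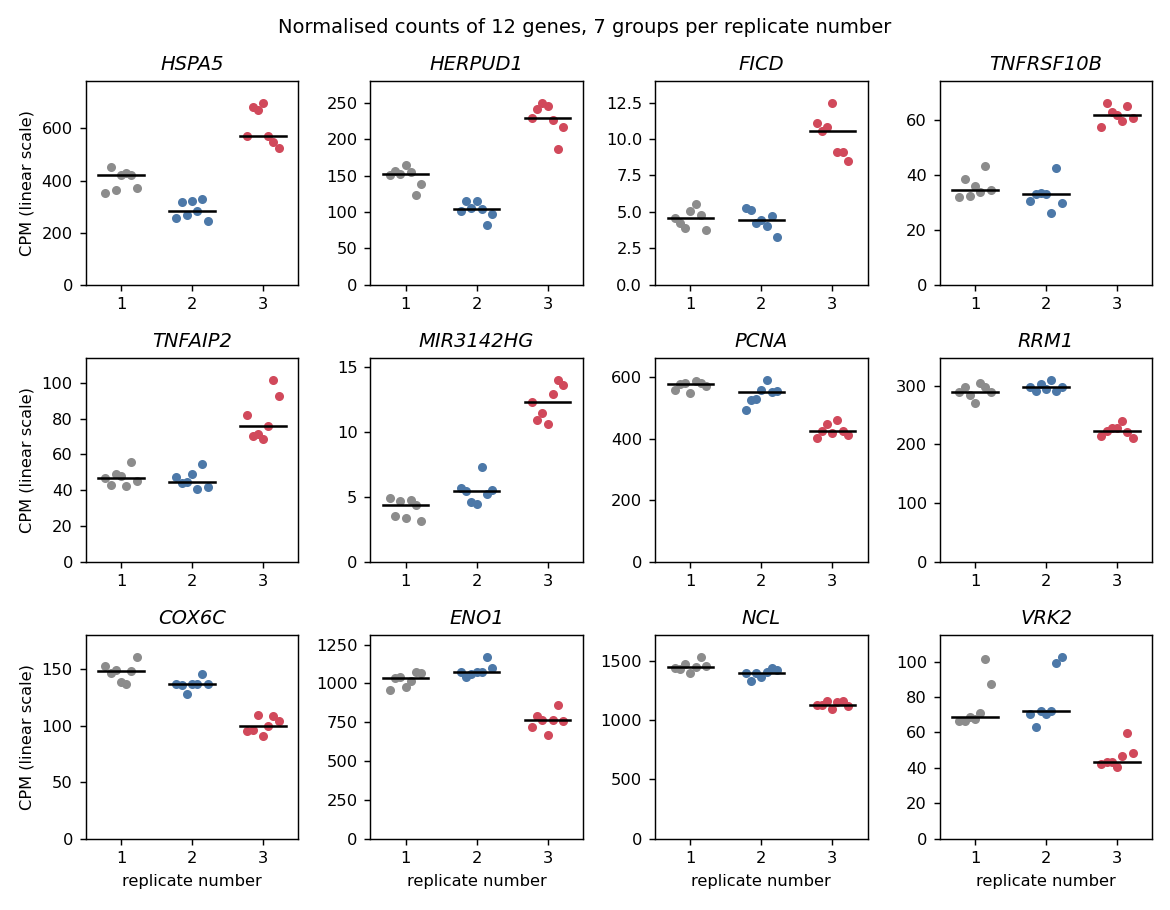
Normalised counts (CPM, linear y axis) of 12 genes by replicate number (x axis), with 7 samples for each number as points and their median as a bar. In HSPA5 and HERPUD1 replicate 2 lies below replicate 1, and the samples of replicate 3 do not overlap the other 14 in any of the 12 genes. FICD, MIR3142HG and VRK2 were chosen by the size of this difference. The others were chosen from the same comparison, by small adjusted p-values or after their values were seen. The lack of overlap in the 12 genes is therefore a description and no test.

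On the low side, every tested gene of DNA replication and the G1/S transition was lower in replicate 3. Of the 46 genes, 41 lay below both other replicates in all 7 groups, and for 33 the samples did not overlap. RRM1, the large subunit of ribonucleotide reductase, which makes the precursors of DNA (chromosome 11, 4094707 to 4138932, plus strand), was at 271, 296 and 310 CPM in the 14 samples and at 211, 223 and 240 CPM in replicate 3. Its log2 difference was -0.40 ± 0.0273 (SE; adjusted p = 2.43e-12). PCNA, the sliding clamp of the replication fork, was at 494, 559 and 591 CPM against 403, 424 and 459 CPM (-0.39 ± 0.0301 (SE), adjusted p = 2.13e-11). In both genes the samples of replicate 3 lay below all others. GINS1 (-0.47) and GINS2 (-0.44), subunits of the replicative helicase, CCNE1 (-0.46), the cyclin that opens S phase, TK1 (-0.42), CDC45 (-0.39), RRM2 (-0.37), MCM4 (-0.35), TYMS (-0.34), MCM3 (-0.32) and MCM6 (-0.28) did not overlap either. CDT1, which licenses origins, had the smallest difference of the list (-0.10 ± 0.0368 (SE), adjusted p = 0.0323), with overlapping ranges. It no longer passed without replicate 2 or without lnc-NKX2-3-1 GapmeR2 replicate 3, among other samples left out.

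Promoters of these genes are shown because E2F factors bind a short element in many of them. It was searched as TTTCCCGC, TTTCGCGC, TTTGCCGC and TTTGGCGC on both strands. One of these was present in 23 of the 39 genes with a RefSeq promoter (59.0%), in 1 of 22 ER genes (4.55%), in 6 of 60 oxidative phosphorylation genes (10.0%) and in 6.6% of all 10923. Capitals mark the match in either orientation.
MCM3 (chr6:52284898-52284927, minus strand): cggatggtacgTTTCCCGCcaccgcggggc
MCM6 (chr2:135876515-135876544, minus strand): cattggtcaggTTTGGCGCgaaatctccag
PCNA (chr20:5126663-5126692, minus strand): cagcgtcagggGCGGGAAAaggcgtgcgtt
TYMS (chr18:657603-657632, plus strand): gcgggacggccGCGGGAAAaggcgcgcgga
CDT1 (chr16:88803743-88803772, plus strand): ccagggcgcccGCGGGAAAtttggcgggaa
In MCM6 a second match on the other strand overlaps the one shown. CDT1 held the element although its difference was the smallest, and again a match is only a description.

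Many genes of mitosis and histone genes were lower as well. Of 48 genes of G2/M and mitosis, 0 were higher and 39 lower, with a median of -0.18, and 4 did not overlap. CCNB1, the mitotic cyclin, was at 131, 142 and 158 CPM in the 14 samples and at 109, 114 and 122 CPM in replicate 3 (log2 difference -0.31 ± 0.0322 (SE), adjusted p = 4.37e-09). CDK1 (-0.34), its kinase, and CENPF (-0.36), a kinetochore protein, had overlapping ranges. The group medians of this list ran from -0.29 in lnc-RTN4R-1 GapmeR2 to -0.08 in lnc-NKX2-3-1 GapmeR2. Of 62 replication-dependent histone genes, whose transcripts mostly lack a poly-A tail, 25 passed the filter on low counts, with 1 higher (H2AC6, 0.19) and 11 lower. H2BC9 was at 2.21, 3.39 and 3.98 CPM against 1.42, 1.68 and 2.49 CPM (-0.78 ± 0.121 (SE), adjusted p = 3.97e-06). Of 33 genes of non-polyadenylated small RNAs, 6 passed the filter and 3 were lower (SNORD3B-1, RNU5A-1 and SNORD13), each with a median under 1 CPM. The labels describe ribodepleted total RNA and the methods poly-A selection, so the level of transcripts without a poly-A tail is uncertain. Of 15 genes of V(D)J recombination and end joining, 10 were lower and 1, POLM, was higher. XRCC6 (-0.37) and XRCC5 (-0.31), both subunits of Ku, and HMGB1 (-0.36) and HMGB2 (-0.32), chromatin proteins, did not overlap, and RAG1, the recombinase of precursor B cells, did not pass (-0.06, adjusted p = 0.111).

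**Figure D4:**
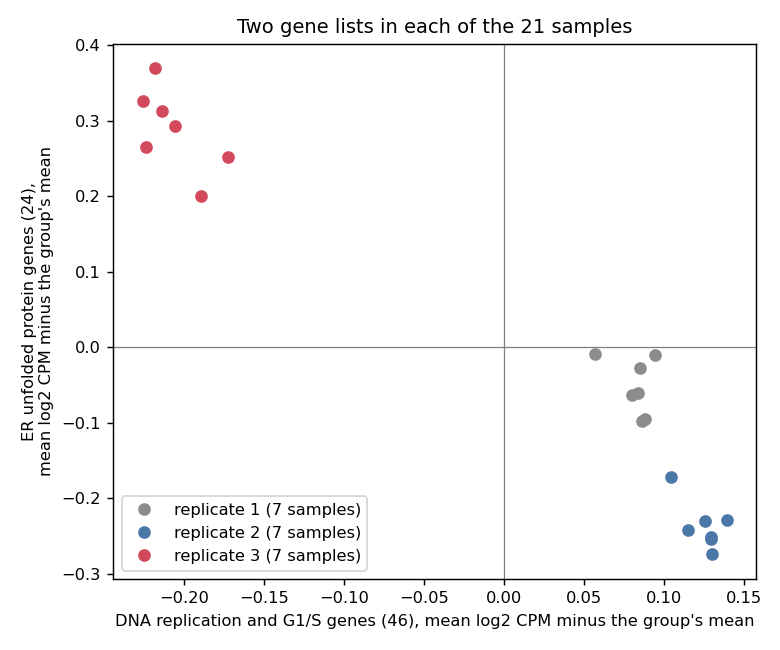
Mean log2 CPM minus the mean of the group for the 46 DNA replication and G1/S genes (x axis) and the 24 ER unfolded protein genes (y axis), 1 point for each of the 21 samples. Replicate 3 lies between -0.226 and -0.172 on the x axis and between 0.200 and 0.369 on the y axis, apart from replicates 1 and 2, and replicate 2 lies below replicate 1 on the y axis.

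Respiratory chain genes were lower with few exceptions. Of the 73 nuclear genes, 51 lay below both other replicates in all 7 groups and 24 did not overlap. COX6C, a subunit of cytochrome c oxidase (chromosome 8, 99873200 to 99893707, minus strand), was at 129, 138 and 161 CPM in the 14 samples and at 90.8, 99.6 and 109 CPM in replicate 3 (log2 difference -0.50 ± 0.0374 (SE), adjusted p = 8.82e-12). ATP5MC1 (-0.52) and ATP5PF (-0.42), subunits of ATP synthase, and COX7B (-0.44) did not overlap either, whereas ATP5ME (-0.52) did. NDUFA7, NDUFV2 and NDUFA13, subunits of complex I, did not pass. The group medians ran from -0.46 in lnc-NKX2-3-1 GapmeR2, the group with the high unmapped share in replicate 3, to -0.20 in lnc-RTN4R-1 GapmeR2. Of the 13 protein genes of the mitochondrial genome, 0 were higher and 10 lower (median -0.17), and all 13 overlapped. MT-CO2 was at 5153, 5620 and 6382 CPM against 4006, 5041 and 5917 CPM (-0.22 ± 0.0363 (SE), adjusted p = 1.26e-05).

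Glycolysis genes went both ways, with more of them lower. Of 23 tested, 11 were lower and 6 higher, with a median of -0.11. ENO1, enolase (chromosome 1, 8861000 to 8879190, minus strand), was at 955, 1064 and 1170 CPM against 670, 766 and 862 CPM (log2 difference -0.47 ± 0.0320 (SE), adjusted p = 2.08e-12), and GAPDH at 2916, 3120 and 3359 CPM against 2010, 2415 and 2719 CPM (-0.39 ± 0.0323 (SE), adjusted p = 6.84e-11). Neither overlapped, nor did LDHA (-0.35) and PGAM1 (-0.41), whereas PKM (-0.40) did. The higher members included the lactate exporter SLC16A3 (1.36 ± 0.212 (SE), adjusted p = 4.32e-06), at medians of 0.333 and 0.885 CPM, the glucose transporter SLC2A3 (0.38) and PFKFB3 (0.24), which makes an activator of glycolysis. Of 23 genes of cholesterol synthesis and uptake, 13 were lower and 2 higher (median -0.15). The enzymes ACAT2 (-0.44) and FDPS (-0.29) were lower, and the factor SREBF2 was among the higher members. Of 19 genes of fatty acid synthesis, 4 were higher (LPIN1 at 0.27, FADS3 at 0.20, ACSL1 and GPAM) and 5 lower (ACLY at -0.19, FADS2 at -0.12, FASN, ACACA and ACSL4). Both counts were near the shares over all genes tested (25.2% and 23.8%). Of 8 metal response genes, MTF1 (0.29), SLC11A2 (0.16) and SLC39A14 were higher and MT2A (-0.58) and TFRC (-0.17) lower.

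Genes that build ribosomes were lower, whereas ribosomal protein genes were lower mainly against replicate 1. Of 58 ribosome biogenesis genes, 0 were higher and 47 lower (median -0.17), 33 lay below both other replicates in all 7 groups and 15 did not overlap. NCL, nucleolin, was at 1332, 1425 and 1531 CPM in the 14 samples and at 1091, 1127 and 1164 CPM in replicate 3 (log2 difference -0.33 ± 0.0265 (SE), adjusted p = 4.25e-11). NPM1, nucleophosmin (-0.29), NHP2 (-0.42), GNL3L (-0.41) and UTP20 (-0.44) did not overlap either. Of 79 cytosolic ribosomal protein genes, 39 were lower and 1, RPL3, was higher (0.08), with a median of -0.12. Against replicate 1 alone 66 of 79 were lower, and against replicate 2 alone 20 of 79. The median level of this list was 463 CPM, and among genes of the class with the highest mean CPM 42.2% were lower. Ribosomal protein genes have many processed copies elsewhere in the genome, so their counts are uncertain. Their list medians in the groups ran from -0.33 in lnc-NKX2-3-1 GapmeR2 to 0.03 in lnc-RTN4R-1 GapmeR2, and all 79 overlapped. RPS2 was at -0.28 and RPL35 at -0.33. Of 26 snoRNA host genes, 9 were higher and 6 lower, among them SNHG12 (0.33) and DANCR (-0.41). Over all genes tested the shares were 25.2% and 23.8%.

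B-lineage genes went both ways. Of 50 tested, 19 were higher and 17 lower, with a median of 0.04. MYB, a factor of immature blood cells, was at 572, 635 and 737 CPM in the 14 samples and at 424, 500 and 544 CPM in replicate 3 (log2 difference -0.38 ± 0.0312 (SE), adjusted p = 6.46e-11), and was the 1 lower member without overlap. MME, the antigen CD10 (-0.32), MEF2C (-0.29) and CD24 (-0.28) were lower, and IRF8 (0.63), MS4A1, the antigen CD20 (0.44), and CD37 (0.36) were higher. CD34 (0.57) and BANK1 (0.61), named after their values were seen, were higher at medians under 1 CPM. PAX5, the factor that holds B-cell identity, was at 693, 744 and 826 CPM against 657, 686 and 765 CPM (-0.09 ± 0.0278 (SE), adjusted p = 0.0101), and EBF1 (0.05, adjusted p = 0.138) and CD22 (0.05, adjusted p = 0.187) did not pass.

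Of 13 MHC class II genes, 5 were higher (HLA-DQA1 at 0.36, HLA-DPB1 at 0.17, HLA-DMA at 0.14, HLA-DQB1 at 0.13 and HLA-DOB) and 0 lower. Of 16 MHC class I genes, 8 were higher, among them HLA-B (0.22) and HLA-C (0.20), and 4 were lower (PSMB10 at -0.27, PSMB9, PSMB8 and TAPBP). Of 46 interferon-stimulated genes, 13 were higher and 12 lower (median 0.03), near the shares over all genes tested (25.2% and 23.8%). ISG20, an exonuclease, was at 3.27, 4.65 and 6.71 CPM against 7.86, 10.4 and 12.05 CPM (1.09) and was named for the size of its difference, and IRF7 (0.46) was higher, while GBP1 (-0.36) and HERC5 (-0.25) were lower. HLA genes share sequence with each other, so their counts are uncertain.

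The 24 genes named for the size of their difference were the 12 largest on either side with a mean of at least 5 CPM and replicate 3 beyond both other replicates in all 7 groups. Since these values chose them, they are given as a description with no test. Of the 12 above, 10 averaged under 5 CPM in replicates 1 and 2 and reached that mean only through replicate 3. Above were HID1 (1.46), a Golgi trafficking protein, DHRS2 (1.38), a dehydrogenase, MIR3142HG, the adaptor SH3BP2 (1.33), FICD, ALS2CL (1.14), the matrix protein gene TNXB (1.13), the antisense RNA L3MBTL2-AS1, SIPA1L2 (1.10), CDC42EP3 (1.09), which acts on the cytoskeleton, ISG20 and WFS1. TNXB has a near-identical pseudogene, so its counts are uncertain. HID1 and DHRS2 differed between replicates 2 and 1 as well, by -0.94 and -1.03, and their ranges overlapped. The ranges of SH3BP2 and SIPA1L2 overlapped too. Below were ARRDC3 (-0.75), an arrestin-like protein, the kinase VRK2 (-0.72), LINC01013 (-0.72), the chromatin protein HMGA2 (-0.68), NUP62 (-0.63) of the nuclear pore, SORBS2 (-0.63), the RNA polymerase subunit POLR2L (-0.63), NME1 (-0.60), a nucleoside diphosphate kinase, PANK1 (-0.54), which starts coenzyme A synthesis, RERGL (-0.54), BRIP1 (-0.53), a helicase of DNA repair, and OSR2 (-0.53). VRK2 was at 63.2, 70.8 and 103 CPM in the 14 samples and at 40.4, 43.6 and 59.7 CPM in replicate 3. Among the genes below, HMGA2, NUP62, SORBS2, POLR2L and OSR2 had overlapping ranges. NUP62 ran from 68.2 to 115 CPM in replicate 1, from 95.1 to 147 in replicate 2 and from 59.4 to 75.2 in replicate 3. In every group NUP62 was higher and ARRDC3 lower in replicate 2 than in replicate 1.

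Among 16 lncRNAs tested as a list, MIAT (0.60), EBLN3P (0.14) and NORAD (0.09) were higher and MIR181A1HG (-1.49) and LINC-PINT (-0.66) lower. MIR181A1HG was at 1.60, 2.96 and 6.96 CPM in the 14 samples and at 0.695, 1.64 and 2.13 CPM in replicate 3 (SE 0.425, adjusted p = 0.0101), and it was also lower in replicate 2 than in replicate 1, by 1.49 on the log2 scale. Against replicate 2 alone, replicate 3 differed by -0.57 and against replicate 1 by -2.04. LINC-PINT was at -0.14 against replicate 2 and at -1.03 against replicate 1, and it no longer passed with most single samples left out.

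Each pair of numbers was then fitted on its own. These fits share samples, so their values are given side by side. Replicate 3 against replicate 1 gave 23.8% of genes higher and 22.4% lower, and replicate 3 against replicate 2 gave 23.9% and 22.9%. Replicate 2 against replicate 1 gave 8.79% higher and 8.79% lower, with a median size of 0.16 on the log2 scale among the genes that passed. Of the 24 ER genes, 23 were higher in replicate 3 against replicate 1 (median 0.36) and 23 against replicate 2 (median 0.48), and 15 were lower in replicate 2 than in replicate 1 (median -0.12). Of the 46 DNA replication genes, 45 and 46 were lower in replicate 3, and 10 were higher in replicate 2 than in replicate 1. Of the 73 oxidative phosphorylation genes, 71 and 68 were lower in replicate 3, and 5 were lower in replicate 2 than in replicate 1. Ribosomal protein genes were arranged otherwise, with 66 of 79 lower in replicate 3 against replicate 1, 20 of 79 against replicate 2, and 54 of 79 lower in replicate 2 than in replicate 1. ATF4 and amino acid response genes too differed mainly between replicates 2 and 1, with 22 of 40 lower in replicate 2.

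Some genes named above rested largely on 1 of the numbers. Against replicate 1 alone DNAJB9 was at 0.56, JUN at 0.41, SGK1 at 0.21, SLC2A3 at 0.15, BBC3 at 0.27, BAG3 at 0.37, NORAD at 0.03, RPL3 at 0.05, ACLY at -0.10, FADS2 at -0.07, RAG2 at -0.09 and IL7R at -0.03. BAG3, NORAD, RPL3, FADS2 and IL7R did not pass there, and neither did GP9, CD79A, CD79B, CDT1 and DDIT3. Against replicate 2 alone MTF1 was at 0.17, POLM at 0.08, BCL11B at -0.08, PSPH at -0.13 and GARS1 at -0.09, and POLM, BCL11B and GARS1 did not pass. With single samples left out, the calls of RPL3, DDIT3, PPP1R15A, NORAD, CDT1, CD79A, CD79B, CD69, DUSP1, LINC-PINT, RNU5A-1, BCL11B, GP9 and CD14 were lost at least once, most often without lnc-RTN4R-1 GapmeR1 replicate 3.

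**Figure D5:**
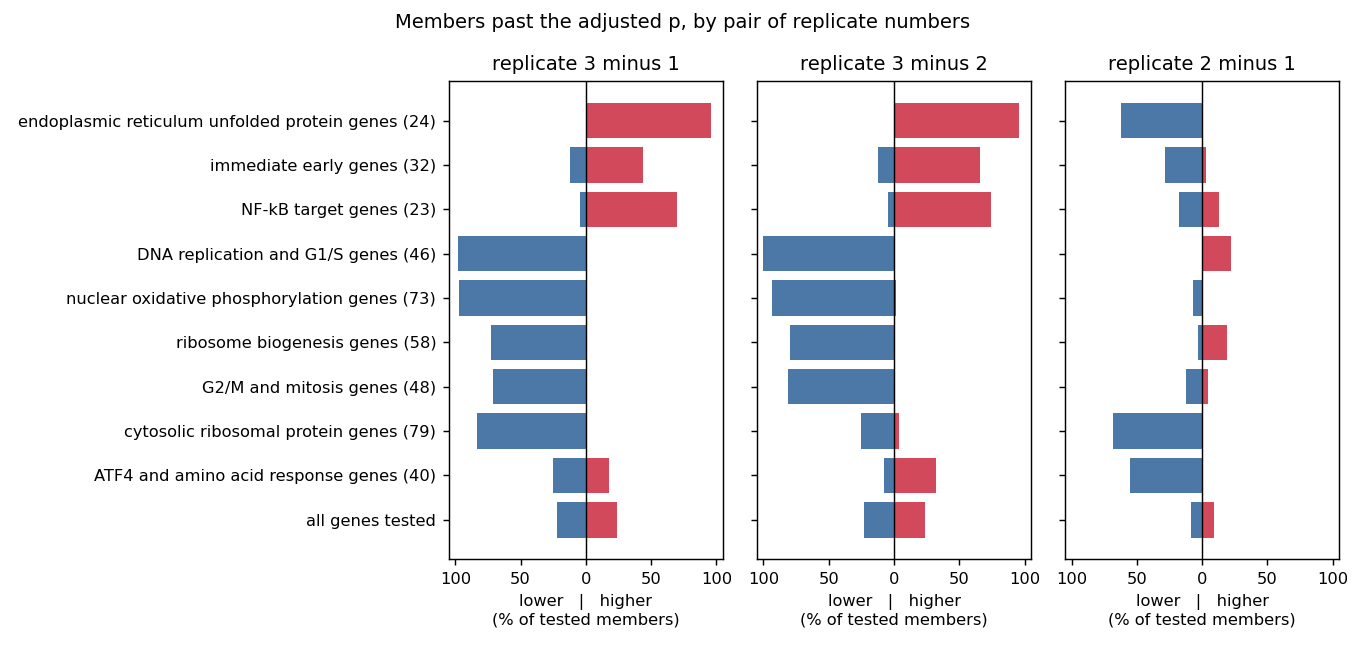
Share of the tested members of each list (y axis, number tested in brackets) that were higher (red, to the right) or lower (blue, to the left) in each pair of replicate numbers, in percent on the x axis. DNA replication and oxidative phosphorylation genes are lower in replicate 3 against either number, whereas ribosomal protein and ATF4 genes are lower mainly in replicate 2 against replicate 1 or, for ribosomal protein genes, in replicate 3 against replicate 1.

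Whether the difference of replicate 3 varied between the 7 groups was tested with an interaction term. In this model the difference between replicates 2 and 1 stays in the residual. The test in edgeR passed 0 of 16674 genes (0%), with 414 genes at an unadjusted p under 0.05 (2.48%). With a term for replicate 2 added after the data were seen, edgeR passed 43 genes, with 1404 at an unadjusted p under 0.05 (8.42%), so the count of 0 depends on leaving that term out. Without it, DESeq2 passed 7 genes, and edgeR with no filter on low counts 41. Each group had 1 sample of replicate 3. The group medians of the ER genes ran from 0.30 in lnc-RTN4R-1 GapmeR2 to 0.52 in lnc-TIMM21-5 GapmeR2, and those of the DNA replication genes from -0.36 in lnc-NKX2-3-1 GapmeR2 to -0.27 in lnc-RTN4R-1 GapmeR1.

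A further group, lnc-ASTN1-1 GapmeR2, had replicates 1 and 3 but no replicate 2 and was not used in the fit. Its replicate 3 differed from its replicate 1 in the same direction as the fit for 6976 of the 7761 genes that passed (89.9%) and for 76.0% of all genes tested. This is 1 sample against 1, with no test. The median log2 difference was 0.21 for the ER genes, with 22 of 24 above 0, and -0.33 for the DNA replication genes, with 46 of 46 below 0. It was -0.34 for the oxidative phosphorylation genes and 0.15 for the NF-kB genes. In the 7 groups, replicate 3 against replicate 1 alone gave 0.36, -0.29, -0.31 and 0.31 for these lists, in that order. It gave 0.14 for the immediate early genes. Among other lists with more higher than lower genes in the fit, the glucocorticoid response genes were at 0.11 in the pair left out. The circadian clock genes were at 0.12 and the tested myeloid markers at 0.38, while several further lists had medians near 0. The median was -0.03 for the immediate early genes, with EGR1 at -0.97, FOS at -0.89 and JUN at -0.14, and it was -0.03 for the p53 target genes, with 12 above 0 and 17 below. It was 0.0060 for the lysosome and autophagy genes, with 17 above 0 and 15 below, and 0.06 for the hypoxia response genes. The ribosomal protein genes were at -0.21, with 77 of 79 below 0. The ATF4 and amino acid response genes were at -0.16, with 30 of 40 below 0. Against replicate 1 alone, the 7 groups gave -0.18 and -0.06 for these lists.

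The share of genes that differed moved with level, length and GC content. The genes tested were cut into 5 classes of equal size. In the class with the highest mean CPM 42.2% of genes were lower, and in that with the lowest 7.19%. The DNA replication genes had a median level of 111 CPM and the oxidative phosphorylation genes of 75.7 CPM, against 21.4 CPM for all genes tested. In the class with the shortest spliced length 11.8% were higher and 23.3% lower, and in the longest 33.0% and 20.7%. In the class with the highest GC content 36.4% were higher and 16.8% lower. With an offset for GC content and length, 3232 genes were higher and 5036 lower, in place of 3991 and 3770. Under it the median of the NF-kB list was 0.24 in place of 0.33 and that of the ribosome biogenesis list -0.20 in place of -0.17. The part of these properties in the differences was not tested further.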

How the data were processed

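RNA sequencing counts of 27 REH samples in 10 groups were used, of which 21 samples in 7 groups entered the comparison. The authors aligned reads to hg38 with STAR, and the deposited values are raw gene counts, unstranded and for each strand. The annotation release is not given in the sources used here. Column 4, which held 95.3% of both strand columns, was used. Symbols and coordinates came from GENCODE for 56434 of 60619 identifiers. Counts were fitted with edgeR (4.0.16) in R (4.3.3), with TMM, filterByExpr (minimum count 10, minimum total 15), quasi-likelihood F tests and the group as block, and adjusted by the Benjamini-Hochberg method. Log2 CPM used a prior count of 2. Standard errors were derived from F. Alternatives were RLE, DESeq2 (1.42.0), limma-voom (3.58.1), other filters, library sizes, strands, blocks and samples, each replicate left out and, added after the data were seen, GC and length offsets and an interaction test with a replicate 2 term. The code was tested on simulated data. Groups and numbers came from the labels, and the numbers mark different days per the methods of the study. Members and gene lists were chosen with earlier results of these data known. Genes named were the 12 largest differences on either side, up to 4 members per list with the smallest adjusted p-values, the REH markers and the targets, and others named after their values were seen: these are the list members given beyond those 4, and members named for a count of 5 or fewer. Total counts of 14627110 to 22750945 limit genes under 1 CPM. Some members of the lists are not reported here.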

Additional observations from a re-analysis of the deposited data

Results flagged for a closer look

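The 7 samples that share a replicate number each received another GapmeR. For every composition measure and every gene given above, the highest or lowest of these 7 was compared with the rest. Dixon's ratio at the 95% critical value was used. The 7 group medians were compared in the same way for the lists of ER, NF-kB, immediate early, DNA replication, G2/M, oxidative phosphorylation and ribosome biogenesis genes. Of 679 such sets, 56 exceeded it, and most of the samples that stood apart came from the lnc-RTN4R-1 groups. Chance gives about 1 in 20 where the 7 samples are alike. Here they received different GapmeRs, and a gene entered once for each replicate number, so the sets are not independent. The share of small RNA genes in lnc-RTN4R-1 GapmeR2 replicate 3 was 0.000594%, against 0.000191% to 0.000342% in the other 6 samples. 

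In NTC replicate 1, POLR2L (27.7 against 34.3 to 38.6 CPM) and NQO1 (4.89 against 6.44 to 7.60 CPM) stood apart from the other 6 samples of that number. In lnc-ASTN1-1 GapmeR1 replicate 1, MIR181A1HG (3.34 against 5.42 to 6.96 CPM) stood apart from the other 6 samples of that number. In lnc-NKX2-3-1 GapmeR2 replicate 1, CIART (2.82 against 1.21 to 1.69 CPM) stood apart from the other 6 samples of that number. In lnc-NKX2-3-1 GapmeR2 replicate 2, LDHA (607 against 627 to 639.9 CPM) stood apart from the other 6 samples of that number. In lnc-NKX2-3-1 GapmeR2 replicate 3, XRCC6 (384 against 421 to 449 CPM) and CDT1 (149.5 against 172 to 184 CPM) stood apart from the other 6 samples of that number. In lnc-RTN4R-1 GapmeR1 replicate 1, BCL11B (29.1 against 22.5 to 24.9 CPM), COL1A1 (11.9 against 8.87 to 10.2 CPM), CD69 (37.7 against 30.5 to 32.6 CPM), CXCR4 (445 against 234 to 307 CPM), CENPF (669 against 539 to 590 CPM) and MS4A1 (20.05 against 8.63 to 12.3 CPM) stood apart from the other 6 samples of that number. In lnc-RTN4R-1 GapmeR1 replicate 2, SH3BP2 (7.85 against 2.15 to 3.64 CPM), OSR2 (9.19 against 5.04 to 6.30 CPM), CD79A (741 against 524 to 583 CPM), FKBP5 (139.7 against 110.2 to 120.2 CPM), CXCR4 (436 against 218 to 308 CPM) and MS4A1 (20.4 against 8.27 to 11.8 CPM) stood apart from the other 6 samples of that number. In lnc-RTN4R-1 GapmeR1 replicate 3, CXCR4 (375 against 223 to 271 CPM) stood apart from the other 6 samples of that number. In lnc-RTN4R-1 GapmeR2 replicate 1, TFRC (810.3 against 618 to 658 CPM), MPO (292 against 86.0 to 117 CPM), PDGFRB (54.4 against 31.4 to 39.3 CPM), HSPA1A (3.84 against 2.37 to 2.88 CPM) and FOS (29.7 against 15.1 to 21.2 CPM) stood apart from the other 6 samples of that number. In lnc-RTN4R-1 GapmeR2 replicate 2, RPS2 (1130 against 1002 to 1051 CPM), ATP5MC1 (44.7 against 35.6 to 39.5 CPM), COX7B (121 against 99.2 to 108 CPM), FADS3 (114 against 89.1 to 99.98 CPM), ENO1 (1170 against 1044 to 1097 CPM) and PKM (1119 against 977 to 1036 CPM) stood apart from the other 6 samples of that number. In the same library, PRDX1 (842 against 641 to 719 CPM), TFRC (818 against 572 to 660 CPM), BCL3 (17.3 against 21.4 to 24.2 CPM), HLA-DPB1 (522 against 394 to 446 CPM), BAX (91.4 against 72.4 to 79.3 CPM) and MPO (294 against 79.7 to 98.7 CPM) also stood apart. In the same library, PDGFRB (50.4 against 31.9 to 39.4 CPM), DNTT (1203 against 853 to 971 CPM), CDT1 (172 against 187 to 193 CPM), HSPA1A (4.63 against 2.52 to 3.39 CPM), CD34 (2.62 against 0.126 to 0.958 CPM) and CTSL (29.4 against 14.8 to 20.8 CPM) also stood apart. In lnc-RTN4R-1 GapmeR2 replicate 3, VRK2 (59.7 against 40.4 to 48.2 CPM), IRF7 (40.8 against 28.7 to 33.7 CPM), BAX (86.4 against 63.1 to 69.4 CPM), MPO (447 against 109 to 151 CPM), CSF3R (30.98 against 18.2 to 23.5 CPM) and PDGFRB (76.9 against 46.7 to 52.9 CPM) stood apart from the other 6 samples of that number. In the same library, FOS (25.5 against 14.5 to 17.2 CPM), SRF (94.5 against 72.9 to 80.2 CPM), CD34 (2.84 against 0.590 to 1.09 CPM) and CTSL (25.2 against 11.4 to 15.6 CPM) also stood apart. In lnc-TIMM21-5 GapmeR2 replicate 1, RPL35 (199 against 289 to 327 CPM) stood apart from the other 6 samples of that number. In lnc-TIMM21-5 GapmeR2 replicate 2, RPL35 (174 against 292 to 339 CPM) stood apart from the other 6 samples of that number.

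With each GapmeR group as a block, a level that is high or low in all replicates of a group does not enter the difference of replicate 3. What set these samples apart was not tested.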

How the results depend on the processing

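The count of genes that differed between replicate 3 and the others stayed within 1.5 times of 7761 under every alternative run, from 5314 to 8377. The replicate numbers are shared across groups, and a replicate block with 3 levels gave 8377 genes (4320 higher, 4057 lower), while limma-voom with a random replicate block gave 5314 (2765 higher, 2549 lower; correlation within a number 0.129). The remaining counts were 6228 with no group block, 7257 with DESeq2 and 7037 to 7796 with 1 sample or replicate number left out. A fit without replicate 3 gives no value, since the comparison is gone. GC and length offsets gave 8268 genes, 3232 higher and 5036 lower. The cause of these changes was not tested.

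At least 2-fold higher genes numbered 254 with no filter on low counts, 32 with at least 10 counts in every sample and 84 to 207 with samples left out. At least 2-fold lower genes numbered 88 and 2 under these filters, 11 with no group block, 36 with all 27 samples and 21 to 45 with samples left out. Replicate 2 against replicate 1 gave 958 genes with no group block (427 higher, 531 lower) and 1803 with DESeq2 (863 lower), and with 1 sample left out 1980 to 2859 (974 to 1518 higher, 948 to 1418 lower). The interaction gave 41 genes with no filter on low counts, 7 with DESeq2 and 43 with a replicate 2 term (replicate block), added after the data were seen.

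Of 243 genes followed, 199 kept direction and side of the threshold under every alternative, 38 lost the threshold under at least 1 and 4 changed direction. The 4 did not pass to begin with. CD22 went to -0.0321 with GC and length offsets. SEC61B went to -0.0070 with all 27 samples, to -0.0016 without lnc-TIMM21-5 GapmeR2 replicate 2 and ran from -0.0278 to 0.0609 with samples left out. ATF4 went to -0.0114 with the offsets and ran from -0.0299 to 0.0739 with samples left out, and FOS ran from -0.262 to 0.0819. List medians that changed sign were those of fatty acid synthesis genes without replicate 2 (0.00854, with a range from -0.0517 when samples were left out), and with the offsets those of interferon-stimulated (-0.0030) and B-lineage genes (-0.0353). The median of the ribosome biogenesis genes ran from -0.20 to -0.14 with samples left out and was -0.20 with the offsets, that of the immediate early genes ran from 0.14 to 0.32, and that of the NF-kB genes was 0.24 with the offsets. Of the composition measures that did not pass, the assigned share differed by -0.616 to 0.195 percentage points with a group left out, the share without a gene by -0.311 to 0.193 points, and total counts by -303860 to 938630. Genes under 1 CPM rest on few counts in each sample, so their differences are the least certain.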
